A study of Homo sapiens with 6 samples.

Results

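The retinoic acid genes described here are 10 of the 60662 genes in the count table of TC-71, a human cell line derived from an Ewing sarcoma, a tumour of bone and soft tissue: the retinal dehydrogenases ALDH1A1, ALDH1A2 and ALDH1A3, the retinol oxidoreductases RDH10 and DHRS3, the retinoic acid binding proteins CRABP1 and CRABP2, and the receptors RARA, RARB and RARG. Rows were selected by gene name, and the family was proposed with counts and fold changes of these same libraries already known, so its values are a description. The members were part of a fit across all genes, which says whether each was past its threshold ("called"), but no p-value is given for a member and none supports a statement about the family. Stranded mRNA libraries were made from untreated wildtype cells and from untreated cells labelled XG knockout, 3 of each, all grown in serum-supplemented medium. XG encodes the membrane protein on which the Xg blood group is found. The labels do not state if the knockout is 1 clone or a mixed population, or if replicates came from separate cultures, so the spread behind each p-value is that of these 6 libraries and may be technical.

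Retinoic acid is made from vitamin A. RDH10 oxidizes retinol to retinal, DHRS3 reduces retinal back to retinol, and the ALDH1A enzymes oxidize retinal irreversibly to retinoic acid. In the cell, CRABP1 and CRABP2 bind retinoic acid, RAR receptors paired with RXR receptors bind DNA and respond to it, and CYP26 enzymes break it down. RARB and CYP26A1 are textbook examples of genes that retinoic acid induces, through paired hexamers in their promoters that RAR and RXR bind.

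Of the 10 genes, 5 were transcribed at more than 10 CPM (counts scaled to a common library size) in the wildtype libraries: ALDH1A1, RDH10, CRABP1, RARA and RARG. ALDH1A1 and CRABP1 were lower in all 3 XG knockout libraries than in any wildtype library, at 79.0% and 79.9% of the wildtype mean. CYP26B1, the only CYP26 gene with more than 1 count in all, was lower as well, at 86.1%. Groups that did not overlap were seen in 20.5% of all genes tested. The calls of CRABP1 and CYP26B1 were lost in 9 and 1 of 16 alternatives in processing, and that of ALDH1A1 in none. RARB, ALDH1A2 and CYP26A1 were at or next to 0 counts in both groups.

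Promoter sequences are shown for the genes that were lower and for the silent genes whose promoters hold the paired hexamers. They come from RefSeq (GRCh38.p14), which held a window for 11 of 12 genes searched (the 10 members, CYP26A1 and CYP26B1), 20 windows in all, each with 250 bases before a transcript start. The motifs searched on both strands were the TATA box (TATAAA), the CCAAT box and the GC box (GGGCGG), together with the direct repeats DR1, DR2 and DR5. In a direct repeat, a pair of hexamers stand in the same direction with 1, 2 or 5 bases between them. Each hexamer could be AGGTCA, the consensus of nuclear receptor sites, or the variant AGTTCA, the variant GGGTCA, or the variant GGTTCA. A direct repeat may overlap another motif. Capitals mark matches, each sequence runs 5′ to 3′ on the strand of its gene, and its last base is the base before the start.

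The first set covers the 150 bases before a RefSeq transcript start of each gene that was lower. ALDH1A1 at chr9:72953054-72953203 (minus strand) holds CCAAT, and CRABP1 at chr15:78340203-78340352 (plus strand) holds GGGCGG. CYP26B1 at chr2:72147863-72148012 (minus strand) holds none. The ALDH1A1 start lies 127389 bases inside the outer edge of the counted gene, and the bases before that edge were not searched.
ALDH1A1: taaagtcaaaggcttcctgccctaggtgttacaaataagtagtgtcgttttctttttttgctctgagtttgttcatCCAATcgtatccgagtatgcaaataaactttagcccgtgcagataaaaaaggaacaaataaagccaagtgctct
CRABP1: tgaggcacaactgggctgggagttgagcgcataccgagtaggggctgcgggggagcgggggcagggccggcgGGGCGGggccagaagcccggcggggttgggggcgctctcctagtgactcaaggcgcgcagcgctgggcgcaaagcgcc
CYP26B1: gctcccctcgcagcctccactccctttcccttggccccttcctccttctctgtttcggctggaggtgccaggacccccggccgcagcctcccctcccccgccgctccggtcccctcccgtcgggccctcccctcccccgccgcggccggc

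The second set covers the 100 bases before the RARB start at chr3:25428163-25428262 (plus strand) and the CYP26A1 start at chr10:93073793-93073892 (plus strand). Each holds a DR5, which in CYP26A1 reads on the opposite strand, and CYP26A1 also holds TATAAA.
RARB: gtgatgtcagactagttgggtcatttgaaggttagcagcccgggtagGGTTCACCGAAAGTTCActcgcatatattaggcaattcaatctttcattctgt
CYP26A1: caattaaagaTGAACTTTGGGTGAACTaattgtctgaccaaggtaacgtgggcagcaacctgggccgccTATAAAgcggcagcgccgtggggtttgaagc

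The DR5 lies 53 to 37 bases before the RARB start and 90 to 74 bases before the CYP26A1 start. Among 35116 RefSeq promoter windows of the same length, 0.0740% held a DR5, 0.0968% a DR1 and 0.0313% a DR2, against 32.0% with CCAAT, 42.6% with GGGCGG and 10.7% with TATAAA. RARB and CYP26A1 are textbook cases of such sites, so their matches were known beforehand and no enrichment is read from these shares. No DR1, DR2 or DR5 was found in the windows of the other genes, which says only that these letters are not in the 250 bases searched. RARB has 4 RefSeq starts, and the DR5 was before 1 of them.

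The libraries held 22557187 to 31214099 counts. XG, the targeted gene (ENSG00000124343.13, chromosome X, 2752048 to 2816500), had 1254, 1228 and 999 counts in wildtype replicates 1, 2 and 3 and 746, 948 and 836 in knockout replicates 1, 2 and 3, so its transcript was reduced, to 64.8% of wildtype by CPM, and not absent (log2 fold change -0.63, SE 0.0478, adjusted p = 1.65e-06 in edgeR). Knockout replicate 3 differed from the other knockout libraries: the GC-rich genes (GC content of 57.8% or more) had a median log2 difference from the wildtype mean of -0.15 and -0.12 in knockout replicates 1 and 2 and of 0.011 in knockout replicate 3. Its chi-square per gene, a measure of distance between libraries, was 4.75 and 4.35 against knockout replicates 1 and 2, and 2.16 to 2.39 against wildtype, so it lay nearer to wildtype than to its own group. Without it 1851 genes were called in place of 196, against 18 to 67 with any other library left out. The 10 Ewing sarcoma markers summed to 3031 to 3091 CPM in wildtype and 2957 to 2990 CPM in knockout libraries, with CD99 the only one called, lower, a call lost in 7 of 16 alternatives (log2 fold change -0.13 to -0.067). Blood, endothelial and muscle markers summed to at most 0.281, 0.253 and 0.0362 CPM in any library, with CD3E, HBB, VWF, MYOG, DES, MYF5 and ACTC1 at 0 counts in all 6. Epithelial markers summed to 4.405 to 5.34 CPM. Most of that was KRT8, at 2.94 to 4.24 CPM, while CDH1 had 0 to 2 counts a library. KRT8 was higher in all 3 knockout libraries than in any wildtype library and was not called (log2 fold change 0.31, SE 0.135). Fibroblast and osteoblast markers summed to 41.1 to 48.5 CPM. Most of that was COL1A1, at 25.8 to 32.7 CPM, while COL1A2 had 0 to 3 counts a library.

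Levels of different genes were compared as TPM, which divides counts by summed exon length and scales each library to the same total. In wildtype libraries CRABP1 stood at 66.6 ± 3.98 TPM and ALDH1A1 at 62.8 ± 1.27 TPM (SD, n = 3), and their libraries overlapped. RARA (30.8 ± 1.77 TPM) and RARG (29.5 ± 1.07 TPM) followed and overlapped each other, then RDH10 at 9.51 ± 0.337 TPM (SD, n = 3). CRABP2 (0.906 ± 0.481 TPM) and ALDH1A3 (0.734 ± 0.15 TPM) overlapped, and DHRS3 was at 0.157 ± 0.0419 TPM (SD, n = 3). The order was the same in knockout cells, where CRABP1 (54.1 ± 1.12 TPM) and ALDH1A1 (50.4 ± 1.35 TPM) no longer overlapped. Within the families, ALDH1A1 made up 97.7% to 99.1% of ALDH1A transcripts by TPM in every library, while RARA and RARG shared the RAR transcripts, RARA with 49.0% to 52.1%.

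**Figure D1:**
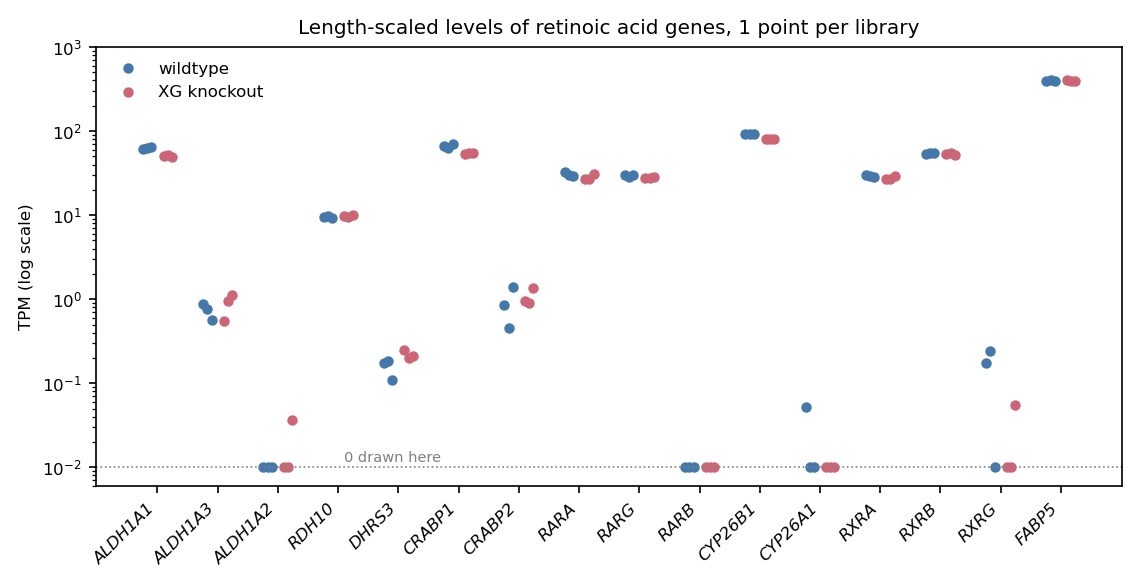
TPM on a log scale for the 10 members and for CYP26, RXR and FABP5 genes, 1 point per library, wildtype in blue and XG knockout in red; values of 0 are drawn at the dotted line. ALDH1A1 and CRABP1 lie near 60 TPM with the knockout libraries lower, and RARB is at 0 in all 6 libraries.

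Among the enzymes, ALDH1A1, the retinal dehydrogenase that also serves as a stem cell marker in many tissues, was by far the most abundant ALDH1A transcript and lower in knockout cells. ALDH1A1 (ENSG00000165092.13, chromosome 9, 72900671 to 73080442, minus strand, GRCh38) had 41.2, 41.6 and 42.6 CPM in wildtype replicates 1, 2 and 3 and 33.7, 33.2 and 32.2 CPM in knockout replicates 1, 2 and 3. The 3 knockout libraries lay close together, and the highest was well below the lowest wildtype library. In bulk RNA, fewer cells with the transcript and less of it per cell cannot be told apart. Group means were 41.8 ± 0.711 and 33.03 ± 0.721 CPM (SD, n = 3). The log2 fold change was -0.34 (SE 0.0466). ALDH1A1 was among the genes called in the fit across all genes (adjusted p under 0.05), and in each of the 16 alternatives its log2 fold change stayed between -0.37 and -0.32 and was called. With knockout replicate 3 as the only knockout library the value was -0.37, and after a correction for GC content -0.37. None of the 5 other tested genes within 1 Mb of ALDH1A1 was called by edgeR, and their median log2 fold change was 0.0079. In the authors' deposited table the ALDH1A1 log2 fold change was -0.34 (SE 0.0640).

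ALDH1A3 and ALDH1A2, the other retinal dehydrogenases, contributed little. ALDH1A3 had 30, 25 and 16 counts in wildtype and 17, 37 and 40 counts in knockout replicates 1, 2 and 3. The groups overlapped, and the log2 fold change of 0.23 had an SE of 0.276, so a difference was not detectable at this depth. Without knockout replicate 3, ALDH1A3 was at 0.030, against 0.57 with knockout replicate 3 alone. ALDH1A2 had 2 counts, both in knockout replicate 3, and 0 in the other 5 libraries.

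RDH10, which makes the retinal that ALDH1A1 uses, was at 11.7, 12.4 and 11.5 CPM in wildtype and 12.1, 11.7 and 12.6 CPM in knockout libraries. The groups overlapped throughout, with a log2 fold change of 0.022 (SE 0.0739). DHRS3, which reverses that step and is itself known as a retinoic acid induced gene, had 4, 4 and 2 counts in wildtype and 5, 5 and 5 in knockout libraries. At 2 to 5 counts a library it was near the floor of 3 counts and was not tested.

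Among the binding proteins, CRABP1 was abundant and lower in knockout cells, while CRABP2, the form that delivers retinoic acid to receptors in the nucleus, was nearly absent. CRABP1 (ENSG00000166426.8, chromosome 15, 78340353 to 78348225, plus strand) had 14.9, 14.2 and 15.8 CPM in wildtype and 11.8, 11.95 and 12.15 CPM in the knockout ones. The lowest wildtype library lay above the highest knockout library. Means were 14.97 ± 0.823 and 11.96 ± 0.191 CPM (SD, n = 3). CRABP1 was called in the fit across all genes, at a log2 fold change of -0.32 (SE 0.0710). The call was less firm than that of ALDH1A1: it was lost with DESeq2 (log2 fold change -0.32), without wildtype replicate 1 (-0.33), 2 (-0.36) or 3 (-0.28), without knockout replicate 1 (-0.31) or 2 (-0.32). It was also lost when knockout replicate 3 stood alone for the group (-0.30), with a block for replicate number (-0.32) and with that block and GC correction together (-0.26). The direction was the same in each. After GC correction without the block CRABP1 was at -0.26 and was called; the transcript has a GC content of 57.8%. None of 18 other tested genes within 1 Mb of CRABP1 was called by edgeR. In the authors' deposited table the CRABP1 log2 fold change was -0.32 (SE 0.104), with no adjusted p-value. Its mean normalized signal there was 360, and the lowest with an adjusted p-value was 546. CRABP2 had 6, 3 and 8 counts in wildtype and 6, 7 and 10 in knockout libraries, and was not tested.

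**Figure D2:**
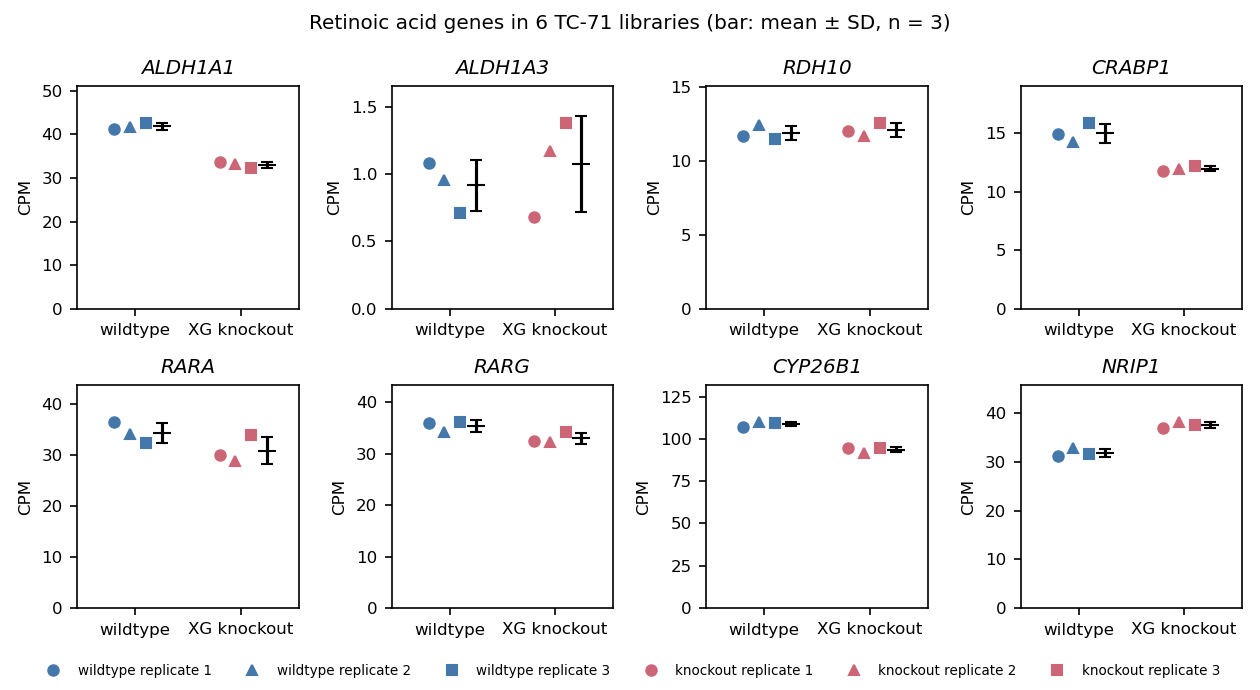
CPM in each library for the 6 members that passed the filter on low counts and for CYP26B1 and NRIP1, replicates 1, 2 and 3 as circle, triangle and square, with mean ± SD (n = 3) beside them. The ALDH1A1, CRABP1 and CYP26B1 knockout libraries lie below all wildtype libraries and those of NRIP1 above, while RARA, RARG, RDH10 and ALDH1A3 overlap.

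The receptors RARA and RARG, which convert retinoic acid into a change of transcription, were not called with all libraries. RARA (chromosome 17, 40309180 to 40357643) had 36.4, 34.0 and 32.4 CPM in wildtype and 29.9, 28.7 and 33.9 CPM in knockout libraries. Knockout replicate 3 lay within the wildtype range and the other knockout libraries below it. The log2 fold change was -0.15 (SE 0.0630), which became -0.23 and was called without knockout replicate 3, and was -0.018 with knockout replicate 3 alone. RARG (chromosome 12, 53210567 to 53232980) had 36.1, 34.2 and 36.1 CPM in wildtype and 32.5, 32.3 and 34.25 CPM in knockout libraries, a log2 fold change of -0.10 (SE 0.04995). Knockout replicate 3 again was the highest of its group and overlapped wildtype. RARA and RARG transcripts have GC contents of 63.0% and 60.02%, and after GC correction their log2 fold changes were -0.056 and -0.025. The part of GC content in these receptor values was not tested beyond that correction.

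RARB was not detected: it had 0 counts in all 6 libraries. With 161687007 counts in all, a count of 0 allows a level of up to 0.0186 CPM (3 counts; counting error only). So the receptor promoter that holds the DR5 shown above gave no counted transcript in either group, at a depth where RARA and RARG had 728 to 1022 counts a library.

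Taking the 10 genes as a set, 6 passed the filter on low counts, and ALDH1A2, DHRS3, CRABP2 and RARB did not. Of these 6, 2 were called, both lower, in a fit that called 196 of 14425 genes (1.36%), 132 lower (0.915%) and 64 higher (0.444%). The groups did not overlap in the same 2 members and in 20.5% of all genes tested. The median log2 fold change of the 6 was -0.13, against 0.0019 for all genes tested, and -0.040 after GC correction. Because the family was proposed with this comparison in view, nothing is read from these shares.

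The remaining genes of the pathway were taken from 6 lists that hold 92 other genes, 53 of them tested: 1 rose, 1 fell and 51 did not pass. The share called was 3.77%, against 1.36% of all genes tested. Knockout replicate 3 bears on the count: without it 12 were called, 3 higher and 9 lower, against 0 to 2 with any other library left out. Calls rose across all genes as well without that library, to 1851 of 14598 from 196 of 14425. With all libraries, 20 of the 53 had a positive log2 fold change and 33 a negative one. Their median was -0.051, and -0.018 after GC correction. CYP26B1 (chromosome 2, 72129238 to 72148038), which degrades retinoic acid, fell. It had 107, 110 and 109 CPM in wildtype and 94.6, 91.9 and 94.8 CPM in knockout libraries, and the groups were well apart. CYP26B1 was lower in 3 of 3 knockout libraries, by a log2 fold change of -0.22 with an SE of 0.0334 (adjusted p = 0.00378 in edgeR). After GC correction it was -0.16 and was called; without wildtype replicate 3 it was -0.22 with an adjusted p of 0.0520, the highest over the alternatives, and the lowest was 3.82e-06. The ratio of CYP26B1 to ALDH1A1 transcripts by TPM was 1.47, 1.49 and 1.46 in wildtype and 1.59, 1.57 and 1.66 in knockout libraries, so the synthesizing enzyme was lower by a larger factor than the degrading one in these libraries; this ratio was not tested. CYP26A1 had 1 count, in wildtype replicate 1, and CYP26C1 had 0.

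NRIP1 (chromosome 21, 14961235 to 15065936), a nuclear receptor corepressor that is also a known retinoic acid target, rose from 31.3, 32.8 and 31.5 CPM in wildtype to 36.9, 38.1 and 37.6 CPM in knockout libraries. NRIP1 was higher in 3 of 3 knockout libraries, by a log2 fold change of 0.24 with an SE of 0.0480 (adjusted p = 0.0198 in edgeR). The NRIP1 call was lost when wildtype replicate 1 (0.22), 2 (0.26) or 3 (0.23) or knockout replicate 2 (0.22) was left out and with a block for replicate number (0.24), at adjusted p-values up to 0.151, and held with knockout replicate 3 alone (0.24); the lowest adjusted p was 0.000952.

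**Figure D3:**
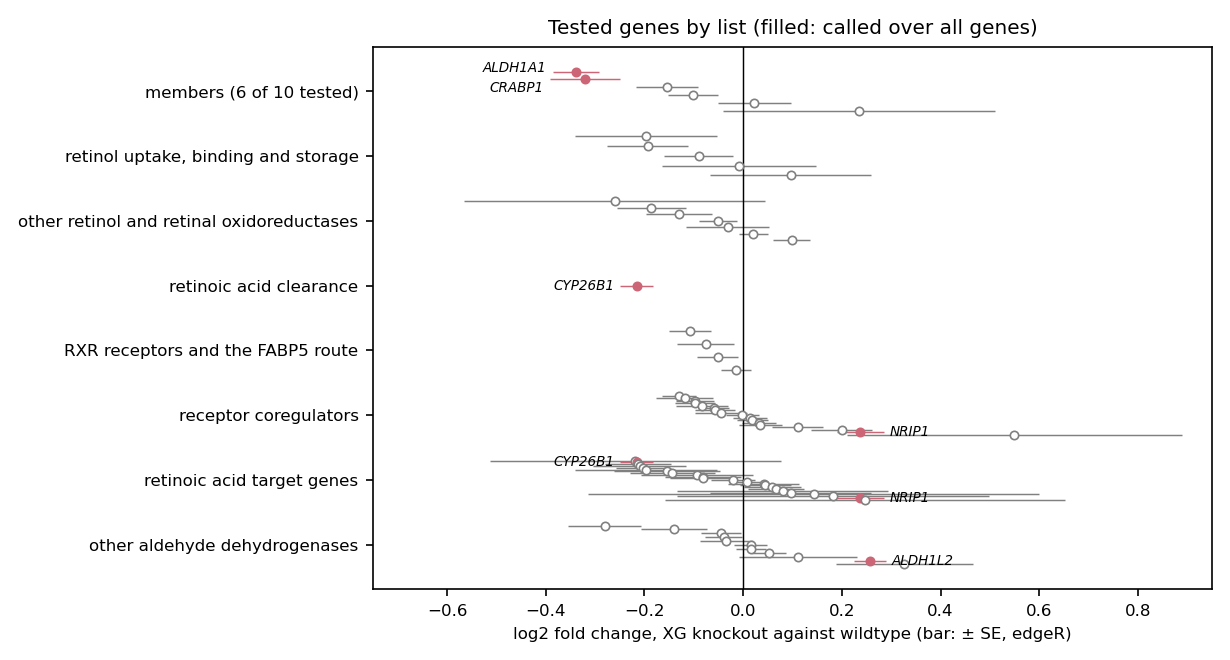
Log2 fold change (XG knockout against wildtype, bar ± SE, edgeR) of each tested gene by list; filled points were called over all genes and genes in more than 1 list appear in each. ALDH1A1, CRABP1 and CYP26B1 are the called genes on the lower side, at -0.34, -0.32 and -0.22, and NRIP1 and ALDH1L2 those on the higher side, at 0.24 and 0.26.

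In the other lists no gene passed. For retinol uptake, binding and storage, edgeR called 0 of 5 tested genes, with 1 at an unadjusted p under 0.05, and DESeq2 and limma voom called 0. The gene there with the smallest p was PNPLA4, a lipase with retinyl ester activity, at a log2 fold change of -0.19 (SE 0.0823), and the most abundant per length was DGAT1, at 14.5 TPM. STRA6, the retinol uptake receptor, named here after its values were seen, averaged 2.12 ± 0.0559 CPM in wildtype against 2.27 ± 0.232 CPM (SD, n = 3). For the other retinol and retinal oxidoreductases 0 of 7 were called by edgeR, DESeq2 or limma voom, 2 at an unadjusted p under 0.05 by edgeR: DHRS4 at -0.19 (SE 0.0697) and RDH11 at 0.098 (SE 0.0375). Both were called without knockout replicate 3, at log2 fold changes of -0.25 and 0.11, against -0.074 and 0.068 with knockout replicate 3 alone. ADH5 led this list in level, at 151 TPM.

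The RXR partners of the RARs did not pass the test. RXRA averaged 82.4 ± 2.30 CPM in wildtype against 76.5 ± 4.22 CPM in XG knockout, and RXRB, chosen after its values were seen, 50.3 ± 0.738 against 48.5 ± 1.03 CPM (SD, n = 3). Of the 4 tested genes of the RXR and FABP5 list edgeR, DESeq2 and limma voom called 0, with 1, RXRA, at an unadjusted p under 0.05 by edgeR. RXRA, with a GC content of 60.6%, had a log2 fold change of -0.11 with all libraries, -0.16 without knockout replicate 3 (called), -0.022 with knockout replicate 3 alone and -0.028 after GC correction. RARA showed the same order of values over these settings. FABP5, which carries retinoic acid to PPARD instead of the RARs, stood at 395 TPM, the most abundant transcript of the list, with a log2 fold change of -0.014 (SE 0.0303), and PPARD at 30.5 TPM with -0.076 (SE 0.0576).

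Of 17 coregulators all were tested and 1, NRIP1, was called; the most abundant, the arginine methyltransferase PRMT1, averaged 332 ± 4.38 CPM in wildtype against 304 ± 16.6 CPM (SD, n = 3). PRMT1 had a log2 fold change of -0.13 (adjusted p = 0.0625 in edgeR) and of -0.044 with knockout replicate 3 alone, and was called without knockout replicate 3, by DESeq2 and with no filter on low counts. Of 40 known retinoic acid target genes 23 were tested, and CYP26B1 and NRIP1, counted above, were those called, in opposite directions. Their median log2 fold change was -0.020, with 11 positive and 12 negative. Targets such as MEIS1, MEIS2 and NR2F2, homeobox and nuclear receptor factors, had log2 fold changes of 0.059, 0.067 and -0.020, and HOXD4 of -0.093. The choice of these 4, all with small shifts, followed a look at their values. RARRES2 (-0.21, SE 0.0667) and RET (-0.21, SE 0.0945) shifted more and were not called with all libraries. RARRES2 was called without knockout replicate 3. With CYP26B1, NRIP1 and ZNF703, they were the 5 of 23 tested targets at an unadjusted p under 0.05 by edgeR. The most abundant target, ZNF703, had 197, 194 and 194 CPM in wildtype and 150.5, 167 and 190.3 CPM in knockout libraries, with knockout replicate 3 close to wildtype (log2 fold change -0.20, adjusted p = 0.0671 in edgeR, and -0.036 with knockout replicate 3 alone). ZNF703 was called without knockout replicate 3 (-0.29) and with no filter on low counts (-0.20).

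The rest of the aldehyde dehydrogenase superfamily was mixed in direction. Of 16 genes 11 were tested, 6 with a positive and 5 with a negative log2 fold change, a median of 0.015. ALDH1L2, a mitochondrial folate enzyme, was the member called. It was higher in 3 of 3 knockout libraries, at 117, 115 and 113 CPM in wildtype and 137, 139.9 and 136 CPM in XG knockout. Its log2 fold change was 0.26 (adjusted p = 0.000491 in edgeR), with 0.23 to 0.27 over the alternatives. ALDH16A1 stood at -0.28 on the log2 scale (SE 0.0733; adjusted p = 0.0636 in edgeR) with knockout libraries at 26.5, 30.1 and 34.6 CPM against 35.1 to 39.4 CPM in wildtype. It was called with DESeq2, with GC correction, with no filter on low counts and without knockout replicate 3, and is named after its values were seen. The most abundant member, the proline synthesis enzyme ALDH18A1 at 237 TPM, had a log2 fold change of 0.015 (SE 0.0305).

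**Figure D4:**
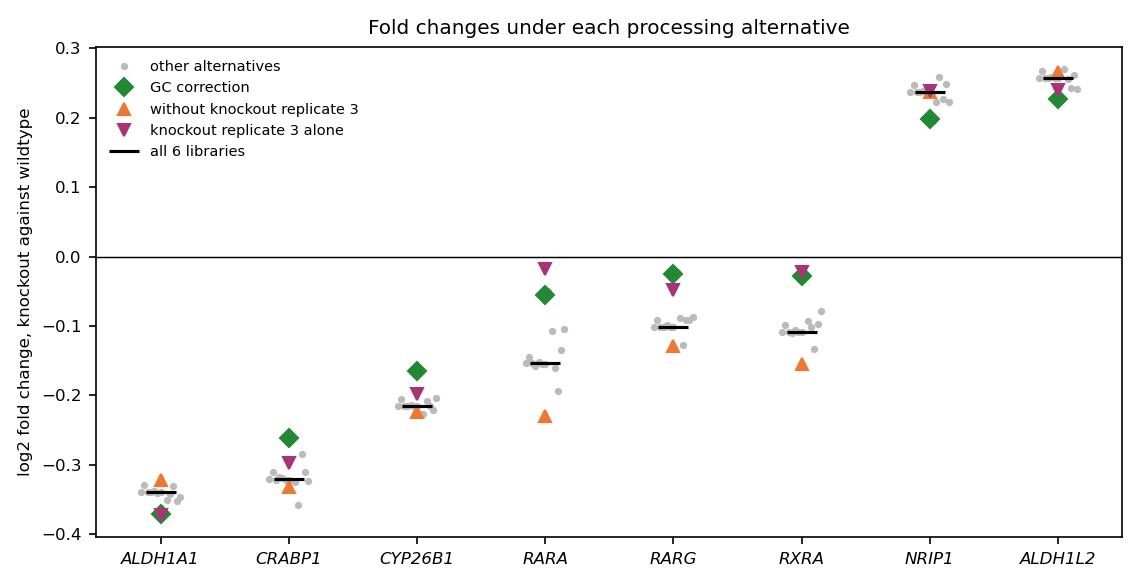
Log2 fold changes of 8 genes in the fit with all 6 libraries (black bar) and under 16 alternatives (GC correction, without knockout replicate 3 and knockout replicate 3 alone marked, others in grey). ALDH1A1 stays between -0.37 and -0.32, while RARA ranges from -0.23 to -0.018 its lowest value without knockout replicate 3 and its highest with that library alone.

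By root mean square difference of centred log2 CPM over the 6 libraries, the protein-coding genes whose pattern was most like that of ALDH1A1 were FAM155B (0.025), OLFM1 (0.043) and SGF29 (0.045), with log2 fold changes of -0.32, -0.32 and -0.27. FAM155B had 22.0, 21.3 and 21.9 CPM in wildtype and 17.5, 17.8 and 17.0 CPM in knockout libraries. Those most like RARA were REPIN1 (0.018), SIPA1L3 (0.023) and ANAPC11 (0.026). REPIN1 had 122, 114 and 110 CPM in wildtype and 100.1, 99.8 and 115 CPM in knockout libraries, with knockout replicate 3 the highest of its group as in RARA. All of these genes were picked for likeness over the same 6 libraries, so the shared patterns and similar fold changes follow from the selection.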

How the data were processed

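Values were fragment counts per gene deposited by the authors, made with featureCounts 2.0.1 on exons of GENCODE 33 genes in paired-end mode with the reverse-strand setting, per the file headers. Counting by strand keeps antisense genes apart. Per the submitters' processing notes, reads were aligned with STAR 2.7.6a to GRCh38. The authors also deposited a table of log2 fold changes, p-values, a statistic (score) and mean normalized signal, which the notes attribute to DESeq2 1.38.3; the direction of its fold changes is not stated, and 14304 of 14425 tested genes had the sign seen in the counts. Each of the 6 count columns has the name of 1 sample.

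Genes were kept by filterByExpr of edgeR 4.0.16 (minimum count 10, minimum total 15; 14425 genes with 99.9% of counts), scaled with edgeR's TMM method, then tested across all genes with glmQLFit and glmQLFTest (two-sided, no covariates, Benjamini-Hochberg adjusted p under 0.05) in R 4.3.3. "Called" means past that threshold; SE comes from the fold change and F statistic. CPM use TMM-adjusted library sizes; TPM use the table's exon lengths, which ignore isoforms.

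Alternatives were relative log expression (RLE) and upper quartile scaling, DESeq2 1.42.0, limma voom 3.58.1, no filter and a stricter filter (100 counts in 3 libraries). Others were a block for replicate number, GC correction, and both together. GC correction used lowess (span 0.5) on GC content of the longest GENCODE 29 transcript, known for 99.5% of tested genes. The rest left out each library in turn or took knockout replicate 3 as the only knockout library. These make up the 16 alternatives. An adjusted p of 0.01 was applied to the main fit in addition and is not among the 16. With knockout replicate 3 alone, the spread comes from wildtype and is assumed to hold for it. No library pair within a group agreed within sampling noise (chi-square per gene 1.46 to 4.75). The fit was also run on simulated counts with the same spread for all genes and libraries. Those counts had no GC trend and no library unlike its group, so that run does not bear on the calls given here.

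The members, lists and tests were chosen with earlier results of these data known. Named genes are the 10 members and XG; called genes of each list or, with none called, the 2 of smallest p; the most abundant gene per length of each list; and, for the most abundant tested ALDH1A and RAR genes, the 3 protein-coding genes of at least 5 CPM nearest in pattern (pseudocount 0.5 CPM). Of the marker lists, sums, markers at 0 and some single markers are given. Some items that these rules name are not reported here.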

Additional observations from a re-analysis of the deposited data

How the results depend on the processing

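ALDH1A1 was called in all 16 alternatives; CRABP1, CYP26B1 and NRIP1 lost their calls in 9, 1 and 5 of 16, with no change of direction. SGF29, CD99 and FAM155B lost theirs in 10, 7 and 4. Among the genes named by rule, calls were gained by PRMT1 in 3 and by ZNF703 and REPIN1 in 2 each. RARA, RXRA, DHRS4, RDH11, SIPA1L3 and ANAPC11 gained a call in 1 each. ALDH16A1 and RARRES2, which the rules do not name, also gained calls, in the settings given above. All genes called numbered 196, and 647 without a filter on low counts, 37 with the replicate block, 339 with GC correction (157 higher, 182 lower, against 64 and 132), 125 with knockout replicate 3 as the only knockout library, 33 at an adjusted p of 0.01, and 18 to 1851 with 1 library left out, the 1851 without knockout replicate 3 and 18 to 67 without any other. Members called numbered 2, and 1 with DESeq2, with the replicate block, with GC correction and replicate block, with knockout replicate 3 as the only knockout library and at 0.01, and 1 to 3 with 1 library left out (3 without knockout replicate 3). Other pathway genes called numbered 2, and 3 with DESeq2, 5 without a filter, 1 with the replicate block and 1 at 0.01. With 1 library left out they numbered 0 to 12 (12 without knockout replicate 3, 0 without wildtype replicate 3). Other aldehyde dehydrogenases called numbered 1, and 2 with DESeq2, without a filter, with GC correction and without knockout replicate 3, and 1 to 2 with 1 library left out. The causes were not tested.

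Same-numbered libraries did not deviate together (correlations of deviations -0.056, -0.059 and -0.064), so the replicate numbers are not taken to pair the samples.

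Of 34 named genes 8 had log2 fold changes that changed sign, in 16 values, and none of these 8 was called with all libraries. RDH10 was at -0.0016 without wildtype replicate 3 and -0.0071 without knockout replicate 3. DGAT1 was at 0.011, ADH5 at -0.013 and COL1A1 at 0.048 with GC correction, and at 0.013, -0.013 and 0.041 with GC correction and replicate block. With knockout replicate 3 as the only knockout library PPARD was at 0.031, ALDH18A1 at -0.020, COL1A1 at 0.16 and SIPA1L3 at 0.026. FABP5 was at 0.0025 without wildtype replicate 2, ALDH18A1 at -0.0047 without wildtype replicate 3 and -0.0037 without knockout replicate 1, and COL1A1 at 0.026 without knockout replicate 1. With 1 library left out, RDH10 ranged from -0.0071 to 0.056, FABP5 from -0.028 to 0.0025, ALDH18A1 from -0.0047 to 0.033 and COL1A1 from -0.14 to 0.026. At 16 to 40 counts a library for ALDH1A3 and 10 or fewer for CRABP2, DHRS3, ALDH1A2 and RARB, depth limits what can be said of these members.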
